A study of Mus musculus with 10 samples.

Results

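Splenic B cell cultures from KOKI mice were compared with SAHA-treated splenic B cell cultures from wild-type (WT) mice, gene by gene, in bulk RNA-seq. The 4 libraries compared were chosen by their titles from the 10 of the series: 2 of KOKI LPS and 2 of WT LPS+SAHA. A further 2 libraries, of WT cultures with LPS alone (WT LPS), are set beside them, and the 4 femoral libraries of the series enter no value below except where all 10 are named. In each of the 6 splenic libraries the cells were splenocytes left after removal of CD43-positive cells. The cells left by this step are mostly resting B cells. They were kept for 2 days with 5 µg/ml LPS, a bacterial cell wall product.

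WT cells came from mice labelled BLACK-6, and SAHA was added to the WT LPS+SAHA cultures at 200 ng/ml when the culture began. What KOKI stands for is not in the labels. A mini 3'RR appears in the series title, the 3'RR being a regulatory region behind the heavy chain (IgH) genes of immunoglobulin, and the strain background of the KOKI mice is not given in the sources used here. Titles and design text give the KOKI cultures LPS alone, whereas their treatment label names LPS and SAHA. By title, genotype and SAHA differ together between the groups, so the contribution of each cannot be told apart from these 4 libraries; by treatment label only the genotype would differ. Names of the SAHA libraries contain "D3" although the protocol gives 2 days of culture. Nothing in the labels says that the 2 libraries of a group came from separate animals, so each p-value reflects the spread among these libraries alone. That spread may be technical in the WT groups, while the KOKI pair came from a male and a female by their Xist and Ddx3y counts.

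LPS acts on B cells through Toll-like receptor 4 and drives them to divide and, in part, to become plasmablasts, the dividing precursors of antibody-secreting plasma cells. In that step the repressor encoded by Prdm1 (Blimp-1) turns down the B cell programme of Pax5 and Bcl6, and Xbp1 enlarges the endoplasmic reticulum (ER) so that immunoglobulin can be folded and secreted. SAHA (vorinostat) inhibits histone deacetylases (HDACs), enzymes that take acetyl groups off histones and other proteins. The 3'RR is an enhancer cluster that supports transcription of the IgH constant genes and class switching, the exchange of the constant gene that an antibody uses.

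Total counts ran from 18614742 to 29222145 per splenic library. Levels are given as CPM, counts scaled to edgeR's TMM library sizes, and a gene is called where edgeR's quasi-likelihood test gave a Benjamini-Hochberg adjusted p under 0.05 over all 15342 genes tested. B cell markers were high in every library: Ms4a1, the surface protein CD20, was at 932 and 898 CPM with SAHA and 867 and 905 CPM in KOKI, and Cd79a, a signalling chain of the B cell receptor, was at 398 and 372 CPM against 303 and 310 CPM. Summed T cell markers (11 of 12 tested) were at 23.9 and 22.7 CPM with SAHA and at 12.1 CPM in both KOKI libraries, most of it Lck, and summed macrophage and monocyte markers (5 of 10 tested) were at 44.1 and 43.5 CPM against 25.6 and 29.0 CPM. Within the latter sum Adgre1 (-1.59), Csf1r (-2.66) and Lyz2 (-2.34) were called lower in KOKI on the log2 scale. Csf1r was low everywhere, at 0.812 and 1.82 CPM with SAHA and 0.194 and 0.217 CPM in KOKI (edgeR adjusted p = 0.0437). Its difference was -3.11 without WT LPS+SAHA library 1 and -1.955 without library 2. Itgam was called higher (3.79 and 3.59 CPM with SAHA, 15.3 and 16.5 CPM in KOKI) and Marco was not called. Of the defining genes of those cells, C1qa, C1qb, C1qc and Cd3e were too low to be tested. The part of other cell types in the results below was not tested. In bulk RNA, fewer cells of a type and less RNA per cell cannot be told apart.

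Among the 4 libraries, 2 stood apart from the others. KOKI LPS library 2 held 8499 counts of Xist and 20 of the Y-linked Ddx3y, while the other 5 splenic libraries held at most 9 and at least 3183, so the KOKI pair differs in sex. Its 18S ribosomal RNA entry was at 35500 CPM, against 2750 to 6290 CPM elsewhere. WT LPS+SAHA library 2 held at least 1 count for 31524 genes, among them 451 of 1292 olfactory receptor genes; the other splenic libraries held 17957 to 22237 genes and 15 to 126 olfactory genes. Counts that lead a result were therefore also taken without these libraries.

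In the whole comparison, 3639 of 15342 genes (23.7%) were called, 2160 (14.1%) higher and 1479 (9.64%) lower in KOKI LPS, and 1579 (10.3%) were called with a log2 difference of at least 1 in size. Against the WT LPS libraries, KOKI LPS gave 626 calls (4.08%), and SAHA gave 712 (4.64%); these contrasts share libraries with each other and with the main one. The first principal component of the 6 splenic libraries, with 49.1% of the variance, ran from -65.1 and -51.7 for WT LPS+SAHA through -6.69 and -9.79 for WT LPS to 61.9 and 71.5 for KOKI LPS. Protein-coding genes gave most of the rises (1903 higher and 1085 lower of 11339), while long non-coding genes gave 18 higher and 140 lower of 1038. These class counts were taken with all libraries only, and their dependence on WT LPS+SAHA library 2 was not tested. The count of calls fell to 1780 and 1703 without KOKI LPS library 1 or 2, to 1870 and 2235 without WT LPS+SAHA library 1 or 2, and to 1678 without both second libraries. Upper-quartile scaling moved the median of all genes from -0.03 to -0.18 on the log2 scale, and with it the split of calls from 2160 higher and 1479 lower to 1338 higher and 2117 lower.

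**Figure D1:**
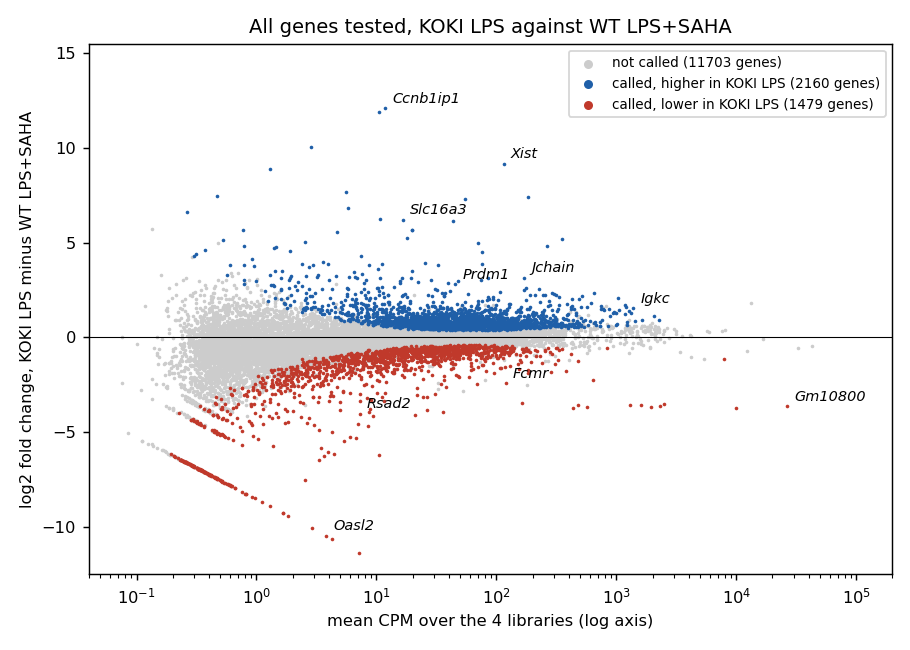
Log2 difference between KOKI LPS and WT LPS+SAHA (y axis) against the mean CPM of the 4 libraries (x axis, log scale) for the 15342 genes tested, with called genes in blue (2160 higher in KOKI LPS) and red (1479 lower). Jchain and Prdm1 lie on the upper side and Fcmr and Rsad2 on the lower side; the slanted rows at the lower left are genes with 0 or a few counts in the KOKI libraries.

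Plasmablast genes had the highest median difference of the 26 lists compared. The groups were picked as the ends of a plasmablast range seen in these data, so the direction of this list is not independent evidence. Of 18 tested members of a list of plasmablast regulators and markers, 14 were higher in KOKI LPS and 2 were lower, and their median log2 difference was 1.84, beside -0.03 over all genes. The rise count was 13 or 14 without any 1 library and 13 without both second libraries.

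Prdm1, the gene of Blimp-1 (chromosome 10, 44437177 to 44528501, mm10), stood at 11.2 and 11.2 CPM in WT LPS+SAHA, 29.2 and 30.7 CPM in WT LPS and 82.5 and 76.1 CPM in KOKI LPS. The 3 groups did not overlap, and WT LPS lay between the other two. Means were 79.3 ± 4.55 (SD, n = 2) in KOKI LPS against 11.2 ± 0.0178 (SD, n = 2) with SAHA, a log2 difference of 2.83 (SE 0.13, edgeR adjusted p = 7.64e-05). Xbp1, the transcription factor of ER expansion (chromosome 11, 5520659 to 5525893), was at 46.1 and 57.2 CPM with SAHA, 97.2 and 106 CPM in WT LPS and 299 and 282 CPM in KOKI. It showed the same order without overlap, with a log2 difference of 2.49 (SE 0.16, edgeR adjusted p = 0.000165). Jchain, which links IgM and IgA into polymers, was at 36.9 and 32.6 CPM with SAHA, 58.7 and 44.3 CPM in WT LPS and 350 and 265 CPM in KOKI. Here the distance from WT LPS to KOKI was larger than that from SAHA to WT LPS: the log2 differences were 2.58 for KOKI LPS minus WT LPS, -0.57 for WT LPS+SAHA minus WT LPS and 3.15 (SE 0.21, edgeR adjusted p = 0.00018) between the ends.

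Ell2, an elongation factor that favours the secreted form of heavy chain mRNA, rose from 37.6 and 36.2 CPM with SAHA to 157 and 144 CPM in KOKI, with 55.4 and 59.7 CPM in WT LPS. Bhlha15 (Mist1), a transcription factor of secretory cells, was at 1.84 and 0.976 CPM with SAHA, 4.64 and 3.95 CPM in WT LPS and 20.9 and 20.4 CPM in KOKI (log2 3.89, SE 0.31, edgeR adjusted p = 0.00036). Sdc1, the plasma cell surface marker CD138, was at 3.74 and 2.88 CPM with SAHA, 5.27 and 4.76 CPM in WT LPS and 17.4 and 18.3 CPM in KOKI. In each of these 3 genes every KOKI library lay above every WT LPS library, and every WT LPS library above every SAHA library. The ER folding genes Fkbp11 (log2 3.35), Txndc5 (2.00) and Mzb1 (1.69) were also higher, as was Derl3 (2.32), a gene of ER-associated degradation, and Eaf2 (2.23), an elongation factor partner.

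Irf4, which B cells need both for activation and, at higher dose, for the plasmablast step, differed less than Prdm1 and Xbp1: 248 and 247 CPM with SAHA, 307 and 335 CPM in WT LPS and 414 and 397 CPM in KOKI. Its log2 difference of 0.71 (SE 0.15, edgeR adjusted p = 0.0131) lost its call without either KOKI LPS library and without either WT LPS+SAHA library (0.70 to 0.77). Not called were Slamf7 (0.21) and Tnfrsf13b (0.07), which mature B cells also carry, and Tnfrsf17, the plasma cell receptor BCMA, was too low to be tested. The 2 members that were lower, Zbtb20 (-0.67) and Cxcr4 (-0.66), are genes of later plasma cells and of homing; without KOKI LPS library 1 or WT LPS+SAHA library 1 no member was called lower, and without KOKI LPS library 2 it was 1.

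**Figure D2:**
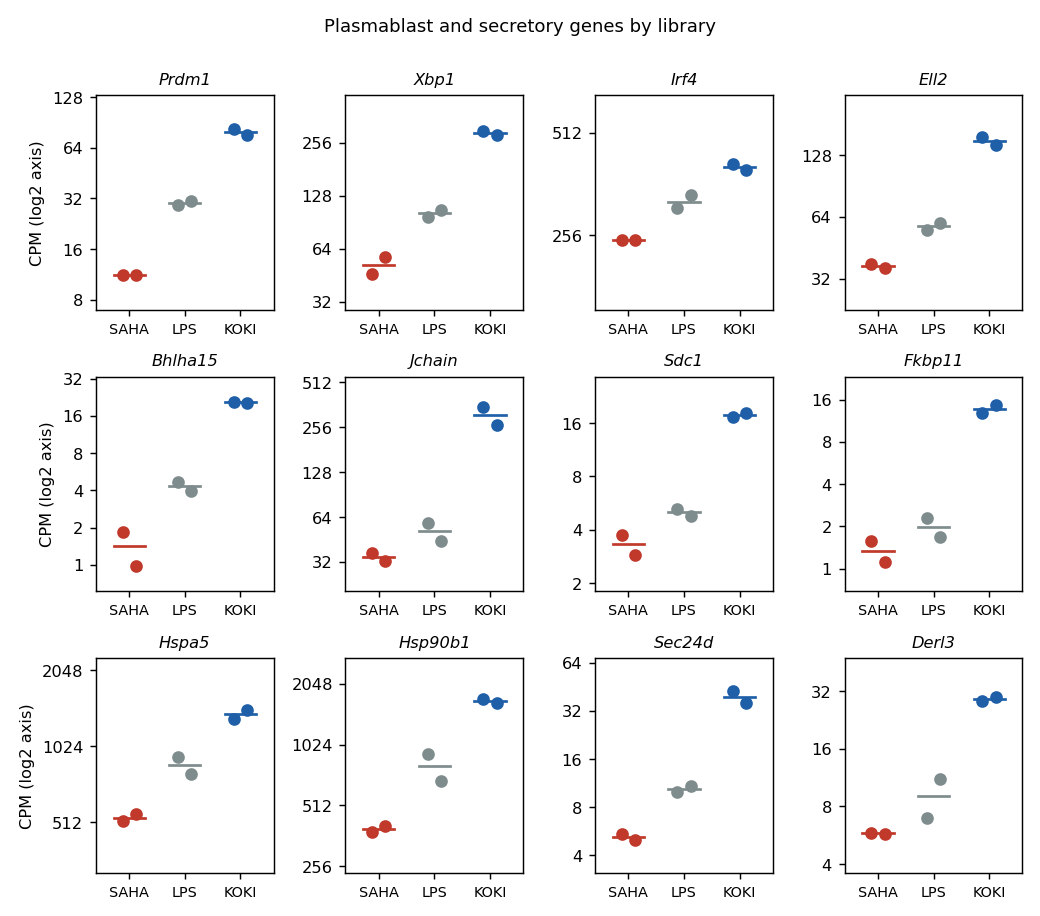
CPM (y axis, log2 scale) of 12 plasmablast and secretory genes in WT LPS+SAHA (red), WT LPS (grey) and KOKI LPS (blue), with 1 point per library and a line at the group mean. In all 12 panels both KOKI points lie above both SAHA points, and both WT LPS points fall between them; Irf4 spans the narrowest range (247 to 414 CPM).

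The folding and secretion machinery of the ER followed. Of 25 genes of the unfolded protein response (UPR) and of secretion, 21 were higher in KOKI LPS and none was lower, with a median log2 difference of 1.25. The list's medians against WT LPS were 0.63 for KOKI and -0.63 for SAHA. The count was 19 without KOKI LPS library 1 or 2 or WT LPS+SAHA library 2, and 19 without both second libraries.

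Hsp90b1, the ER chaperone GRP94, was at 380 and 404 CPM with SAHA, 919 and 678 CPM in WT LPS and 1713 and 1652 CPM in KOKI, without overlap (log2 2.10, SE 0.21, edgeR adjusted p = 0.000876). Hspa5, the chaperone BiP, was at 515 and 550 CPM with SAHA, 925 and 795 CPM in WT LPS and 1318 and 1429 CPM in KOKI (log2 1.37, SE 0.19, edgeR adjusted p = 0.00254). Sec24d, a coat protein of vesicles that leave the ER, gave the largest difference of the list: 5.47 and 4.97 CPM with SAHA, 9.99 and 10.9 CPM in WT LPS and 42.7 and 35.6 CPM in KOKI (log2 2.91, SE 0.18, edgeR adjusted p = 0.000152). Members of many steps shared this order, from disulphide isomerases (Pdia4, 1.72; Pdia6, 1.502) through cochaperones (Creld2, 1.75; Manf, 1.598; Sdf2l1, 1.55) to the translocation channel (Sec61a1, 1.25). Ern1, the gene of the UPR sensor IRE1 that splices Xbp1 mRNA, was higher as well (1.64), while the sensor gene Atf6 (0.44), the stress-death gene Ddit3 (-0.27), Syvn1 (-0.45) and Calr (0.63) did not pass the test.

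Promoters of UPR genes often carry an ER stress response element, CCAAT followed after 9 bases by CCACG, to which NF-Y and ATF6 bind. It was found, on either strand of the 300-base window from 250 before to 50 after the RefSeq start, in 8 of 20 list members with a window and in 0.13% of 27025 promoters. Of the 17 called members 6 held it, and so did 2 of the 3 others. 3 stretches from genes in the account above are shown, in RefSeq's GRCm38.p6, 5′ to 3′ on the gene's strand, with the elements in capitals. CGTGG followed by ATTGG is the same element on the other strand, and each element holds a CCAAT box. In Hsp90b1 the first ATTGG in capitals is a lone CCAAT box on the other strand.
Hsp90b1, chr10:86705502-86705571, minus strand: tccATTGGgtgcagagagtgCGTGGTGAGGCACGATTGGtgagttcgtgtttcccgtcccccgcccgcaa
Pdia6, chr12:17266471-17266540, plus strand: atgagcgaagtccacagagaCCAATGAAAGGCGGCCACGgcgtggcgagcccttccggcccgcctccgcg
Hspa5, chr2:34772005-34772074, plus strand: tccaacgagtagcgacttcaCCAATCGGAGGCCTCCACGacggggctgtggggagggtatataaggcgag

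Among the immunoglobulin genes, the kappa light chain constant gene was called higher in KOKI and the constant gene of IgM was not. Igkc, the kappa constant gene, was at 671 and 740 CPM with SAHA, 801 and 963 CPM in WT LPS and 1948 and 2195 CPM in KOKI (log2 1.55, SE 0.20, edgeR adjusted p = 0.0021). Ighm, the constant gene of IgM, was at 2077 and 2267 CPM with SAHA, 2890 and 3236 CPM in WT LPS and 3068 and 3136 CPM in KOKI. KOKI thus overlapped WT LPS, and its log2 difference from SAHA, 0.51 (SE 0.21), did not pass the test (edgeR adjusted p = 0.11), although both KOKI libraries lay above both SAHA libraries. It passed with DESeq2 (adjusted p = 0.0142). The 2 chains were not tested against each other.

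Of 7 tested IgH constant genes, all on chromosome 12 between 113254830 (Igha) and 113422730 (Ighm), 1 was higher in KOKI and 4 were lower. Ighd, spliced from the same transcript as Ighm in resting B cells, was at 358 and 330 CPM with SAHA, 200 and 227 CPM in WT LPS and 152 and 119 CPM in KOKI, without overlap (log2 -1.35, SE 0.17, edgeR adjusted p = 0.00198). Ighg3, a gene whose germline transcripts LPS is known to induce, was the member that rose: 12.8 and 13.8 CPM with SAHA, 9.21 and 13.5 CPM in WT LPS and 38.4 and 42.1 CPM in KOKI (log2 1.598, SE 0.20, edgeR adjusted p = 0.00175). Ighg2b, the other gene known to respond to LPS, was lower in KOKI, at 15.97 and 20.46 CPM with SAHA, 27.3 and 26.5 CPM in WT LPS and 9.77 and 10.3 CPM in KOKI. Its log2 difference of -0.86 (SE 0.17, edgeR adjusted p = 0.0105) lost its call without KOKI LPS library 1 (-0.80) and without WT LPS+SAHA library 2 (-0.66).

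Igha, the most downstream constant gene, showed the widest gap that rested on counts in all libraries: 15.2 and 17.4 CPM with SAHA, 7.65 and 10.7 CPM in WT LPS and 0.853 and 1.30 CPM in KOKI (log2 -3.94, SE 0.31, edgeR adjusted p = 0.000323). Ighg2c had no count in KOKI LPS library 1 and 0.596 CPM in library 2, against 3.57 and 6.79 CPM with SAHA and 2.77 and 7.03 CPM in WT LPS. It was called lower (log2 -4.265, edgeR adjusted p = 0.0208), but not with DESeq2 (adjusted p = 0.0763). Ighg1 was at 4.01 and 4.39 CPM with SAHA and 1.32 and 2.33 CPM in KOKI and was not called (edgeR adjusted p = 0.0644).

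Summed per locus, kappa V segments stood at 777 ± 26.1 CPM (SD, n = 2) with SAHA and 2130 ± 250 CPM (SD, n = 2) in KOKI (log2 1.45, SE 0.19, edgeR adjusted p = 0.00259), and 64 of 102 tested single kappa V segments were higher and none lower. Lambda V segments were at 175 ± 24.7 and 340 ± 65.7 CPM (log2 0.96, SE 0.19, edgeR adjusted p = 0.0105), a call that was lost without KOKI LPS library 2 (0.78) and without both second libraries (0.62). Heavy chain V segments were at 692 ± 55.9 and 573 ± 51.2 CPM, a sum that was not called (log2 -0.27, edgeR adjusted p = 0.295), although of 104 single segments tested 46 were lower and 17 higher. Summed heavy chain J segments differed by -0.61 (edgeR adjusted p = 0.0544). The Iglc1 constant gene rose with Igkc, from 174 and 134 CPM to 413 and 438 CPM. Iglc2 (-0.27) and Iglc3 (-0.44) were not called, with the SAHA pair itself spread from 797 to 421 CPM and from 562 to 268 CPM, and both turned positive without WT LPS+SAHA library 1 (0.27 and 0.20). Segments and constant genes of 1 locus resemble each other, so the counting may have split or lost their reads. The strain background of the KOKI mice is not given. For the heavy chain constant genes and V segments, a strain difference and the KOKI allele cannot be told apart.

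**Figure D3:**
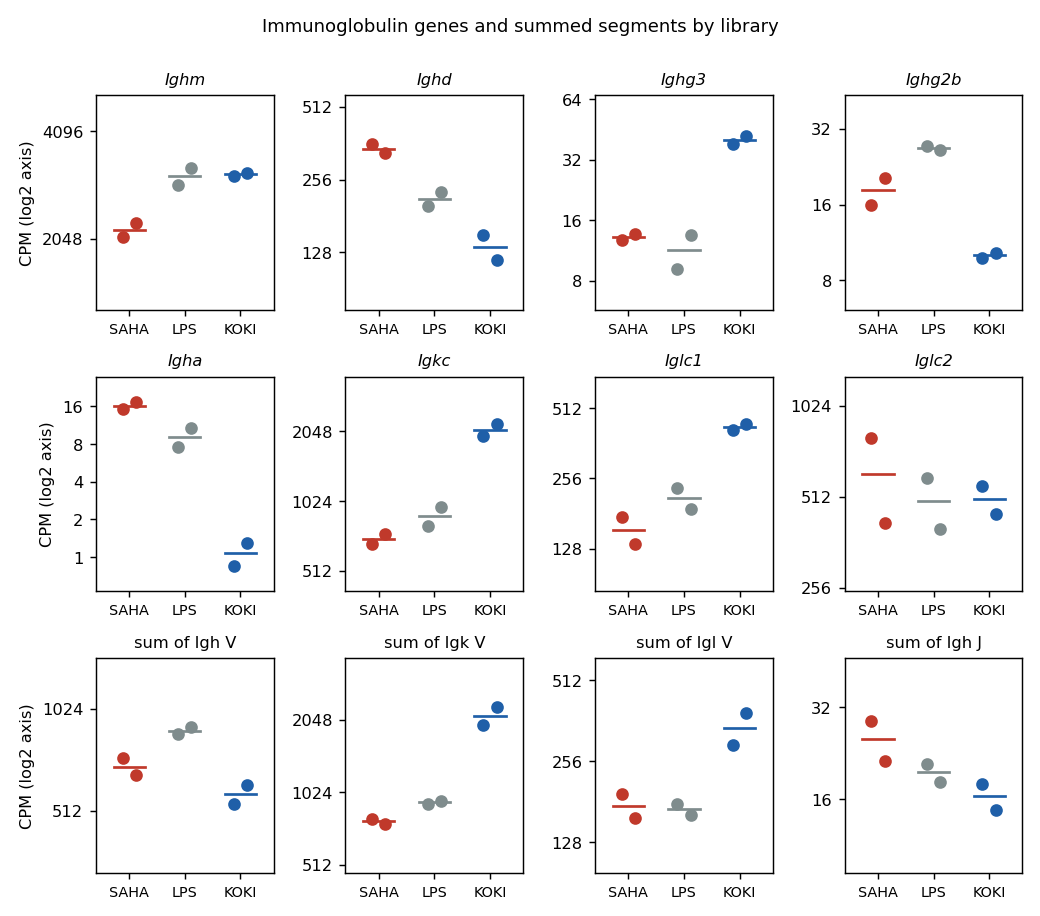
CPM (y axis, log2 scale) of 8 immunoglobulin constant genes and 4 sums of V or J segments in WT LPS+SAHA (red), WT LPS (grey) and KOKI LPS (blue), with 1 point per library and a line at the group mean. Igkc, Iglc1, Ighg3 and the kappa and lambda V sums are high in KOKI, Igha falls to 0.853 and 1.30 CPM there, and Ighm overlaps between KOKI and WT LPS.

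Of 25 genes of class switching and mutation repair, 13 were higher and none was lower, with a median log2 difference of 0.51. Among them were Lig4 (0.84), which joins DNA ends, the nuclease gene Exo1 (0.78) and the mismatch repair gene Msh6 (0.77). The histone gene H2afx rested on KOKI LPS library 1: it was at 208 and 140 CPM with SAHA and at 922 and 283 CPM in KOKI, and its log2 difference of 1.79 became 0.72 without that library (edgeR adjusted p = 0.13); without WT LPS+SAHA library 2 it was 1.54 and not called. The count of 13 became 7 without KOKI LPS library 1, 7 without KOKI LPS library 2, 4 without WT LPS+SAHA library 1 and 6 without library 2. It was 5 without both second libraries, 6 with upper-quartile scaling and 6 with all 10 libraries in the fit.

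Genes of the resting and mature B cell went the other way. Of 28 members of that list, 12 were lower in KOKI and 1, Cd38, was higher (0.78), with a median of -0.43, and 21 had both KOKI libraries below both SAHA libraries, an arrangement that 33.1% of all genes show (32.7% show the reverse). The count of 12 became 7 without KOKI LPS library 1, 2 or WT LPS+SAHA library 1, 9 without WT LPS+SAHA library 2 and 8 without both second libraries, and it was 18 with upper-quartile scaling.

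Fcmr, the receptor for secreted IgM, was at 201 and 201 CPM with SAHA, 93.7 and 120 CPM in WT LPS and 38.2 and 37.0 CPM in KOKI, without overlap (log2 -2.42, SE 0.16, edgeR adjusted p = 0.000165). Cr2, the complement receptor CD21, was at 275 and 284 CPM with SAHA, 118 and 119 CPM in WT LPS and 91.5 and 76.2 CPM in KOKI (log2 -1.74, SE 0.15, edgeR adjusted p = 0.000485). For Cr2 most of the distance lay between SAHA and WT LPS (1.24 on the log2 scale, with -0.50 for KOKI minus WT LPS), whereas for Fcmr it was 0.91 and -1.51. Fcer2a, the IgE receptor CD23 of follicular B cells, ran from 164 and 158 CPM with SAHA through 67.1 and 74.3 CPM to 52.2 and 52.7 CPM in KOKI (-1.62).

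Among the transcription factors, Bcl6, which opposes Prdm1, was at 34.0 and 27.96 CPM with SAHA, 13.8 and 13.8 CPM in WT LPS and 12.7 and 12.1 CPM in KOKI (log2 -1.32, SE 0.16, edgeR adjusted p = 0.00155). KOKI and WT LPS were thus close to each other. Pax5, the factor of B cell commitment, was at 413 and 407 CPM with SAHA, 274 and 321 CPM in WT LPS and 255 and 262 CPM in KOKI. Its log2 difference of -0.67 (edgeR adjusted p = 0.0198) lost its call without any single one of the 4 compared libraries (-0.62 to -0.67). Bach2, which holds back Prdm1, did not pass (log2 -0.35, edgeR adjusted p = 0.0754), and neither did Spib (-0.38), Irf8 (0.13) or Spi1 (0.13). S1pr1, the receptor for leaving lymphoid tissue, was lower (-1.34), as were Cd72 (-1.42), a coreceptor that dampens signalling, and Id3 (-1.002).

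All 9 MHC class II genes had both KOKI libraries below both SAHA libraries, with differences from -0.33 (H2-DMb1) to -0.71 (H2-Ob), and 5 were called. H2-Aa was at 970 and 1003 CPM with SAHA and 660 and 680 CPM in KOKI. The 5 calls became 0 without KOKI LPS library 1, KOKI LPS library 2 or WT LPS+SAHA library 1, 1 without WT LPS+SAHA library 2, and 0 without both second libraries or with all 10 libraries in the fit; it was 8 with upper-quartile scaling. Ciita, the coactivator of these genes, was not called (-0.40, edgeR adjusted p = 0.133).

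Of 25 genes of the LPS receptor and NF-kB response, 2 were higher and 6 lower in KOKI. Over all genes, 14.1% were higher and 9.64% lower. Tnf was at 43.0 and 37.4 CPM with SAHA, 16.1 and 20.5 CPM in WT LPS and 7.83 and 9.85 CPM in KOKI (log2 -2.19, SE 0.19, edgeR adjusted p = 0.000515), without overlap. Cd86, a costimulatory ligand for T cells (-1.39), Ccl3 (-1.37), Cd180 (-0.96), Rel (-0.68) and Nfkbie (-0.50) were also lower, while Il10 (0.84) and the chemokine gene Ccl22 (1.89) were higher. Tlr4 (0.15), Nfkb1 (0.12) and Nfkbia (-0.19) did not pass the test. The 6 lower calls became 3 without KOKI LPS library 2.

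Interferon-stimulated genes were lower in KOKI than with SAHA, and by the list's medians SAHA lay between KOKI and WT LPS. Of 30 members, 17 were lower and none higher, with a median of -0.73 between KOKI and SAHA. Against WT LPS the medians were -1.02 for KOKI and -0.35 for SAHA. The count was 10 without KOKI LPS library 1, 13 without library 2, 12 without WT LPS+SAHA library 1, 11 without library 2 and 13 without both second libraries.

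Rsad2, the antiviral enzyme viperin, was at 15.7 and 11.5 CPM with SAHA, 15.8 and 18.9 CPM in WT LPS and 0.310 and 1.46 CPM in KOKI (log2 -4.03, SE 0.51, edgeR adjusted p = 0.00189). Both KOKI libraries lay far below all 4 WT libraries, and the WT LPS pair lay just above the SAHA pair. Ifit3, whose product binds viral RNA together with Ifit1, was at 18.2 and 23.0 CPM with SAHA, 21.8 and 25.3 CPM in WT LPS and 2.33 and 3.19 CPM in KOKI (log2 -2.91, SE 0.23, edgeR adjusted p = 0.000326), with the WT groups overlapping. Oasl2 had no count in either KOKI library, against 6.50 and 8.70 CPM with SAHA and 8.66 and 13.2 CPM in WT LPS, so it was at least 114-fold lower in KOKI with 3 counts allowed over the group.

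Other antiviral effectors were lower by less, among them Rtp4 (-2.49), Mx1 (-2.07) and Ifit2 (-1.25), as were the feedback protease Usp18 (-1.93) and Irf9 (-0.82), a subunit of the complex ISGF3 that switches on these genes. Stat2 (-0.22), another subunit gene, did not pass the test. Neither did Isg15 (-0.25), Zbp1 (0.33), Bst2 (0.14) or Oasl1 (0.23).

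The Schlafen genes, a cluster on chromosome 11 that interferon can induce, were mixed. Slfn8 was at 70.2 and 61.1 CPM with SAHA, 63.3 and 59.97 CPM in WT LPS and 11.2 and 9.74 CPM in KOKI (log2 -2.64, SE 0.15, edgeR adjusted p = 0.000106), and Slfn5 (-3.03) and Slfn1 (-4.16) were lower as well. Slfn9 went up, from 8.66 and 10.7 CPM with SAHA and 9.33 and 11.4 CPM in WT LPS to 24.0 and 27.3 CPM in KOKI (log2 1.399). Slfn2 (-0.26) and Slfn3 (-0.49) were not called. Near-identical members such as Slfn8 and Slfn9 can exchange reads in the counting, so their values are uncertain.

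The core of the interferon-stimulated response element, GAAANNGAA on either strand, was present in 13 of 21 interferon genes with a promoter window (8 of 12 called and 5 of 9 others) and in 8.57% of all promoters. Stretches are shown for 3 called genes, in GRCm38.p6 from RefSeq, 5′ to 3′ on the gene's strand, with the cores in capitals; TTCNNTTTC is the core on the other strand, and overlapping cores run together.
Rsad2, chr12:26456522-26456591, minus strand: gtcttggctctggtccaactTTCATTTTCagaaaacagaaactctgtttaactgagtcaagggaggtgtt
Ifit3, chr19:34583407-34583476, plus strand: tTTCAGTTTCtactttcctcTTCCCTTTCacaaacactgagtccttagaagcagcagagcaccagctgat
Oas3, chr5:120777679-120777748, minus strand: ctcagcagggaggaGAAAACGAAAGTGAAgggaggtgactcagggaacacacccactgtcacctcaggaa

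Cell division genes were higher in KOKI throughout the list. All 24 mitosis genes were called higher in KOKI, with log2 differences from 0.79 (Foxm1) to 1.75 (Cdc20) and a median of 1.43, and 23 or 24 stayed called without any 1 library. Against WT LPS the list's medians were 0.38 for KOKI and -1.07 for SAHA, with 4 of 24 called higher in KOKI and 23 of 24 lower with SAHA, so most of the distance lay between the WT groups. Those contrasts share the WT LPS libraries, and their backgrounds were 2.25% called higher and 1.83% lower in KOKI, and 0.952% higher and 3.69% lower with SAHA.

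Mki67, the proliferation antigen Ki-67, was at 326 and 383 CPM with SAHA, 645 and 649 CPM in WT LPS and 1161 and 1093 CPM in KOKI (log2 1.67, SE 0.18, edgeR adjusted p = 0.00102). Here KOKI lay clear of WT LPS. Ccnb1, the cyclin that starts mitosis, was at 93.3 and 87.8 CPM with SAHA, 233 and 219 CPM in WT LPS and 235 and 217 CPM in KOKI, so that KOKI and WT LPS overlapped (log2 1.32 between KOKI and SAHA, SE 0.14, edgeR adjusted p = 0.000965). Cdc20, which targets cyclin B for destruction, was at 29.4 and 35.4 CPM, 71.1 and 95.3 CPM, and 106 and 112 CPM in the same order of groups.

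Of 20 genes of DNA replication and S phase entry, 18 were higher in KOKI (median 0.84), with Cdc6 (1.25), Cdc45 (1.24) and Ccne1 (1.22) in front; Cdt1 (0.49) and E2f1 (0.18) did not pass. This count became 11 without KOKI LPS library 2, 13 without WT LPS+SAHA library 1 and 7 without both second libraries. Among 8 tested inhibitors of cyclin-dependent kinases and D cyclins, Cdkn2b (0.0541 and 0.399 CPM with SAHA, 2.52 and 2.22 CPM in KOKI), Cdkn2a (2.17) and Cdkn2c (0.60) were higher. Without KOKI LPS library 1 no member was called, and the count was 1 without WT LPS+SAHA library 1, without library 2 or without both second libraries. Cdkn1a, the inhibitor p21, was at 2.92 and 2.62 CPM with SAHA, 5.50 and 3.57 CPM in WT LPS and 2.17 and 3.46 CPM in KOKI, and its sign turned with the scaling.

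Mitosis promoters are known for CCAAT boxes and for a cell cycle homology region, TTTGAA, where the DREAM and MuvB complexes sit. CCAAT, on either strand, was present in 17 of 19 mitosis genes with a window and in 37.9% of all promoters, and TTTGAA in 14 of 19 and 18.1%. Short stretches of 3 members are shown, in GRCm38.p6 from RefSeq, 5′ to 3′ on the gene's strand, with both elements in capitals; ATTGG and TTCAAA are their forms on the other strand.
Cdc20, chr4:118437344-118437413, minus strand: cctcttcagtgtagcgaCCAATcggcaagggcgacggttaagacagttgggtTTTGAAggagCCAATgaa
Cdk1, chr10:69352913-69352982, minus strand: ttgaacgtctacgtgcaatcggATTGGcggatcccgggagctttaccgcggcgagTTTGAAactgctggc
Kif11, chr19:37376312-37376381, plus strand: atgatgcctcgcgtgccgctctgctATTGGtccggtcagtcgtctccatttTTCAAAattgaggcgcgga

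Genes of lipid and sugar metabolism were higher in KOKI too. Of 23 cholesterol synthesis genes, 20 were higher in KOKI and none lower (median 1.23), and the count was 14 without KOKI LPS library 2 and 14 without both second libraries. Hmgcs1, an early enzyme of the pathway, went from 104 and 124 CPM with SAHA and 207 and 189 CPM in WT LPS to 388 and 476 CPM in KOKI (log2 1.92, SE 0.18, edgeR adjusted p = 0.000631). Srebf2, the gene of the factor that drives the pathway, did not pass (0.06). Of 16 members with a promoter window, 1, Hmgcs1, held the sterol response element TCACNCCAC, which 1.22% of all promoters hold.

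Among 11 fatty acid synthesis genes, 8 were higher (5 without KOKI LPS library 2 and 4 without both second libraries). Scd2, a desaturase, was at 66.6 and 65.9 CPM with SAHA, 79.96 and 94.03 CPM in WT LPS and 318 and 453 CPM in KOKI (log2 2.54, SE 0.20, edgeR adjusted p = 0.00034). The step from WT LPS to KOKI was the larger one for Scd2 (2.147, against -0.39 for SAHA minus WT LPS). Fads2, another desaturase, followed the same order from 0.866 and 2.17 CPM to 13.2 and 25.4 CPM (3.63).

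Of 20 genes of glycolysis and lactate transport, 16 were higher in KOKI (median 1.29), and the count was 13 to 17 without any 1 library and 12 without both second libraries. Slc16a3, the lactate exporter MCT4 (chromosome 11, 120948480 to 120960868), was close to absent in both WT groups and present in KOKI: 0.217 and 0.621 CPM with SAHA, 0.0390 and 0.315 CPM in WT LPS and 22.01 and 43.31 CPM in KOKI (log2 6.21, SE 0.59, edgeR adjusted p = 0.000706). The lactate dehydrogenase gene Ldha instead rose in steps, from 240 and 300 CPM with SAHA through 486 and 552 CPM in WT LPS to 798 and 1130 CPM in KOKI (1.83). Tpi1 (2.145), Pfkl (1.93) and Pdk1 (1.69), whose product keeps pyruvate from the mitochondria, were among the larger differences. KOKI LPS library 2 was above library 1 in all 20, as in Pkm with 1607 against 952 CPM. The glucose transporter gene Slc2a3 (-0.02) and Hk1 (0.15) did not pass.

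Of 17 tested genes of the ATF4 amino acid response, 13 were higher in KOKI (median 1.16), with 8 without KOKI LPS library 2 and 7 without both second libraries. Asns, asparagine synthetase, was at 27.6 and 30.6 CPM with SAHA, 75.7 and 78.4 CPM in WT LPS and 101 and 124 CPM in KOKI (log2 1.95, SE 0.15, edgeR adjusted p = 0.000296). As for mitosis, the list's median against WT LPS was small for KOKI (0.27) and larger for SAHA (-0.64). Psat1 (1.22) had the same order of libraries as Asns. Chac1 (2.399) had it by group means only, since WT LPS (8.74 and 11.8 CPM) and KOKI (11.0 and 13.9 CPM) overlapped. Slc7a11, the cystine transporter, did not pass (-0.89).

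**Figure D4:**
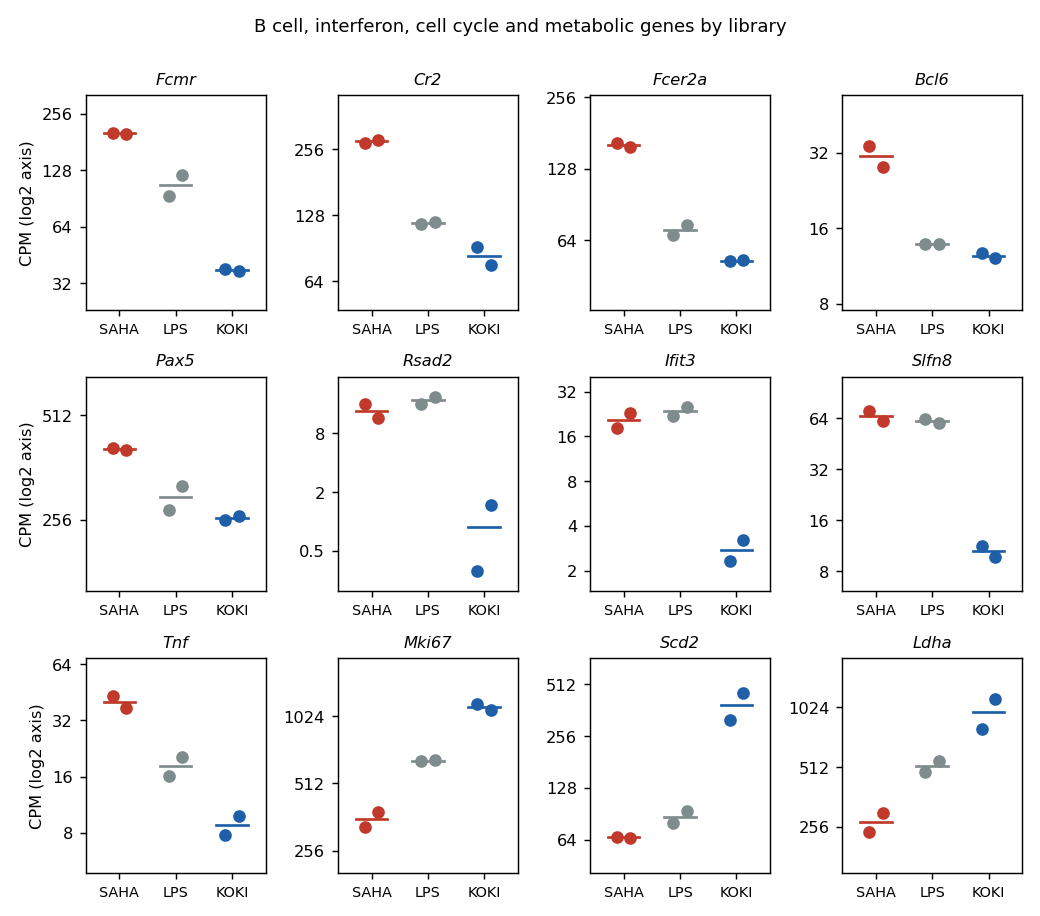
CPM (y axis, log2 scale) of 12 B cell, interferon, cell cycle and metabolic genes in WT LPS+SAHA (red), WT LPS (grey) and KOKI LPS (blue), with 1 point per library and a line at the group mean. Fcmr, Cr2, Fcer2a and Tnf fall from SAHA to KOKI with WT LPS between, Rsad2, Ifit3 and Slfn8 are low in the KOKI pair only, and Mki67, Scd2 and Ldha rise from SAHA to KOKI.

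Histone deacetylase genes gave 3 calls among 11, a share near the 23.7% of all genes. Of these 11 histone deacetylase genes, Hdac2 was higher in KOKI (58.5 and 59.5 CPM against 94.1 and 92.6 CPM, log2 0.66), and Hdac9 (-0.85) and Hdac11 (-2.39) were lower; neither of the lower pair was called without KOKI LPS library 1, Hdac11 was not called without KOKI LPS library 2 or WT LPS+SAHA library 2 either, and Hdac2 was not called without both second libraries. Hdac1 did not pass (0.11, and -0.04 with upper-quartile scaling). Of 10 tested genes that HDAC inhibitors often raise, 3 were lower in KOKI than with SAHA and 3 were higher. Gsn, the actin-severing protein gelsolin, was at 33.9 and 34.8 CPM with SAHA, 9.99 and 13.6 CPM in WT LPS and 15.1 and 19.8 CPM in KOKI (log2 -0.98), a call lost without KOKI LPS library 1 (-0.77). H1f0, the linker histone of resting cells, went the other way, with 11.2 and 13.2 CPM with SAHA, 17.0 and 20.9 CPM in WT LPS and 31.0 and 24.2 CPM in KOKI (log2 1.18, SE 0.19, edgeR adjusted p = 0.00534). The list's 3 lower calls became 0 without KOKI LPS library 1, 1 without library 2 and 1 without both second libraries, and its 3 higher calls became 1 without KOKI LPS library 1 or 2 or WT LPS+SAHA library 2.

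Of 22 Polycomb and DNA methylation genes, 5 were higher and 3 were lower, beside 14.1% higher and 9.64% lower over all genes. Among the 5 were the maintenance methylation genes Uhrf1 (0.91) and Dnmt1 (0.77) and the Polycomb genes Ezh2 (0.87) and Suz12 (0.82). The 3 lower genes were Cbx7 (-1.07), Jarid2 (-0.87) and Tet3 (-0.81). The 5 became 3 without KOKI LPS library 1 or 2 or WT LPS+SAHA library 1, and 1 without both second libraries.

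Nuclear genes of the respiratory chain were higher in 16 of 21 (median 0.68), with Cycs, cytochrome c, in front (1.16). Their count moved between libraries: it was 5 without KOKI LPS library 1, 7 without library 2, 12 without WT LPS+SAHA library 1, 5 without library 2, 5 without both second libraries and 10 with upper-quartile scaling. None of the 12 tested mitochondrially encoded genes was called; medians were -0.08 here, -0.21 without KOKI LPS library 1 and 0.35 without WT LPS+SAHA library 1. Of 18 genes of Myc and ribosome assembly, 9 were higher (median 0.48), which became 3 and 1 without KOKI LPS library 1 or 2, 2 and 3 without WT LPS+SAHA library 1 or 2, 0 without both second libraries, 3 with upper-quartile scaling and 1 with all 10 libraries. Npm1, a nucleolar chaperone, was at 1573 and 1506 CPM with SAHA, 3259 and 2617 CPM in WT LPS and 2784 and 3119 CPM in KOKI, so that KOKI and WT LPS overlapped.

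In the antioxidant list of NRF2 and thioredoxin genes, Nqo1, a quinone reductase, was at 21.55 and 15.04 CPM with SAHA, 38.2 and 24.5 CPM in WT LPS and 4.22 and 4.55 CPM in KOKI (log2 -2.06, SE 0.27, edgeR adjusted p = 0.00222). Srxn1 (-3.01) and Gclc (-0.42) were also lower, and the peroxiredoxin gene Prdx1 was higher (0.89), 4 calls of 10; the count of 3 lower became 1 without KOKI LPS library 1 or 2, WT LPS+SAHA library 2 or both second libraries, and Prdx1 was not called without either KOKI LPS library or without WT LPS+SAHA library 2. Of 12 Bcl2 family genes, Bmf (-1.04) and Bcl2l2 (-0.93) were lower and Bcl2l1, the survival gene Bcl-xL, was higher (0.50), a call lost without any single one of the 4 compared libraries. These calls were a share near the 23.7% of all genes called. The family's median was 0.15, and -0.01 with upper-quartile scaling. Of 11 heat shock and immediate early genes, 3 were higher and 1 was lower, beside 14.1% higher and 9.64% lower over all genes. Jun (1.23), Hspa8 (1.12) and Hsph1 (1.03) were higher. Ier2 (-0.57) was lower, a call lost without either KOKI LPS library and without WT LPS+SAHA library 1.

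**Figure D5:**
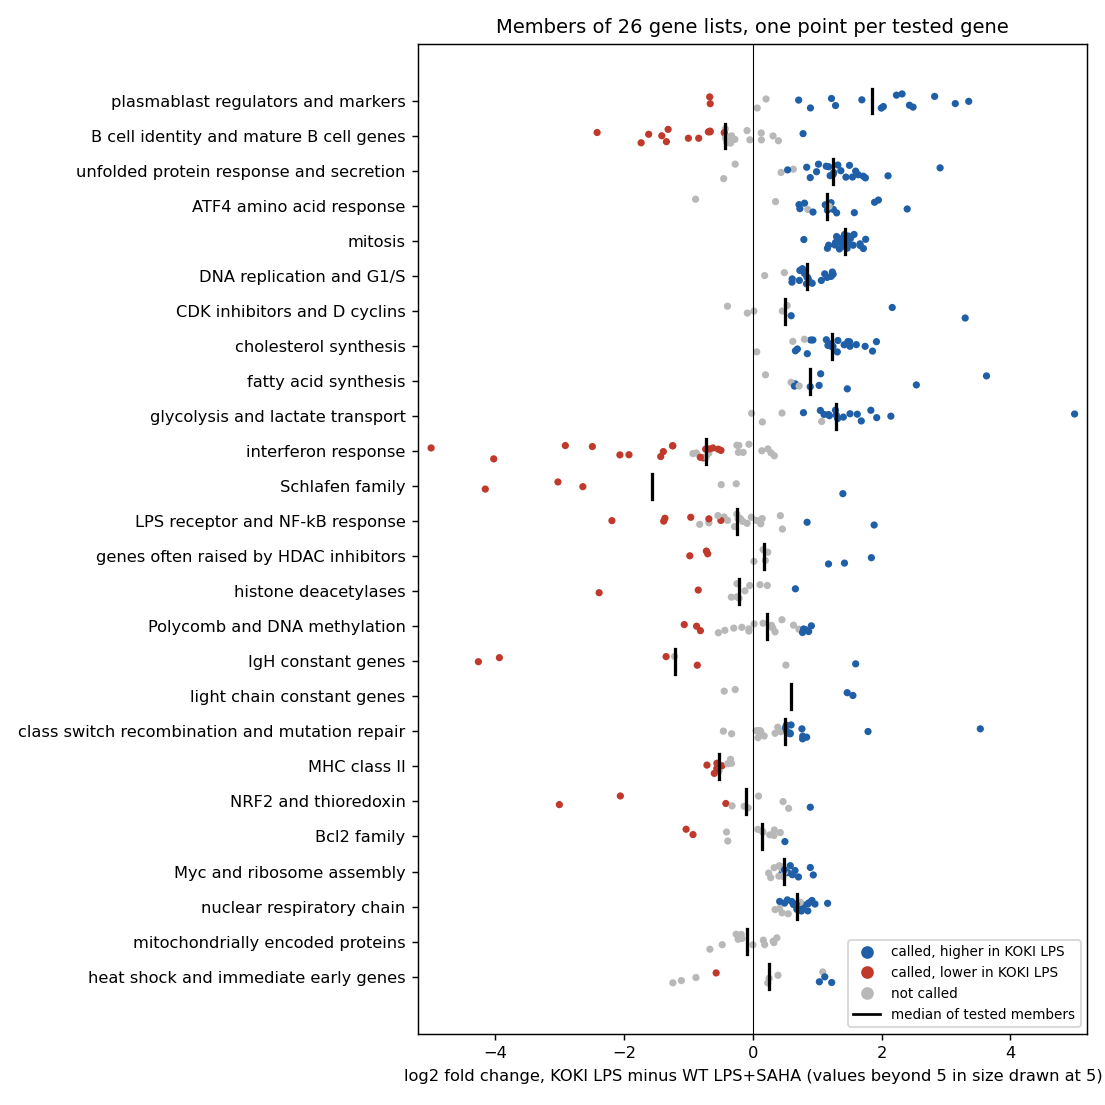
Log2 difference between KOKI LPS and WT LPS+SAHA (x axis) for the tested members of 26 gene lists (rows), with 1 point per gene, called genes in blue (higher in KOKI LPS) or red (lower) and a black bar at the list's median. All 24 mitosis genes are blue around a median of 1.43, the interferon genes spread to the left around -0.73, and the mitochondrially encoded genes hold no called gene; values beyond 5 in size are drawn at 5.

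By size alone, several of the widest gaps separated KOKI from both WT groups, with little distance between the latter. Ccnb1ip1, a gene of meiotic recombination (chromosome 14, 50789249 to 50795728), had no count in any of the 4 WT libraries and 25.4 and 21.9 CPM in KOKI, at least 328-fold higher than with SAHA. Rprl3, a copy of the RNA of ribonuclease P (chromosome 8, 3803069 to 3803358), also had none in the WT libraries and 19.03 and 22.9 CPM in KOKI, at least 283-fold higher. Eno1b, a gene close in sequence to the enolase gene Eno1, was at 1.35 and 1.06 CPM with SAHA, 0.976 and 1.399 CPM in WT LPS and 65.5 and 106 CPM in KOKI. The processed pseudogenes Rps13-ps1 (2.11 and 2.13 CPM with SAHA, 359 and 366 CPM in KOKI) and Rpl34-ps1 (26.2 and 10.6 CPM, and 676 and 692 CPM) behaved alike. Reads of such copies can come from their parent genes, so these values are uncertain, and a strain difference and the KOKI allele cannot be told apart. Rps3a3 rested on KOKI LPS library 1 (280 CPM, against 7.96 CPM in library 2), and its difference of 4.53 became 0.38 without it; the call was also lost without either WT LPS+SAHA library (4.34 and 4.79).

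On the other side, Map3k19, a kinase gene (chromosome 1, 127815253 to 127840321), had no count in KOKI, 6.01 and 5.68 CPM with SAHA and 3.67 and 2.31 CPM in WT LPS, at least 85.8-fold lower than with SAHA. Cyp1a1, a target of the aryl hydrocarbon receptor, had 1 count in KOKI and 204 with SAHA, a ratio of 220 (exact 95% interval 39.0 to 8720, counting error only). Pydc3, an interferon-inducible gene, was at 20.9 and 20.3 CPM with SAHA, 15.61 and 18.99 CPM in WT LPS and 0.116 and 0.487 CPM in KOKI. Genes with a step at each group included Crisp3 (20.8 and 14.3 CPM, 6.63 and 5.70 CPM, and 0.814 and 1.19 CPM) and Clec4e, a receptor for bacterial glycolipid (14.9 and 18.2 CPM, 9.48 and 8.25 CPM, and 1.12 and 1.30 CPM). Esr1, the estrogen receptor alpha, was at 6.33 and 5.59 CPM with SAHA, 2.58 and 2.45 CPM in WT LPS and 0.659 and 0.433 CPM in KOKI (-3.41). The KOKI libraries differ in sex, and the part of sex in this difference was not tested. Ankrd37 (3.09 and 3.19 CPM with SAHA, 42.7 and 52.1 CPM in KOKI) was higher in KOKI too.

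In absolute terms the largest falls were transcripts that hold satellite repeats. Gm10800 was at 45070 and 52940 CPM with SAHA, 12600 and 55910 CPM in WT LPS and 4684 and 3241 CPM in KOKI (log2 -3.63, SE 0.67, edgeR adjusted p = 0.00808). The KOKI pair was the lowest, and 1 WT LPS library lay above both SAHA libraries. Summed over 11 such transcripts, the libraries held 68700 and 108000 CPM with SAHA, 20600 and 92200 CPM in WT LPS and 7970 and 5380 CPM in KOKI. Such repeats match many places, how the counting treated those reads is not given in the sources used here, and without KOKI LPS library 2 Gm10800 was not called (-3.36). Malat1, a nuclear long non-coding RNA, was at 12720 and 8898 CPM with SAHA, 7175 and 5310 CPM in WT LPS and 5422 and 4393 CPM in KOKI (-1.14), a call lost without either KOKI LPS library and without WT LPS+SAHA library 1. The largest absolute rises called were Igkc, Npm1, Hspa8, Hsp90b1, Hist1h2bb and Cd24a, the last at 623 and 577 CPM with SAHA, 1094 and 965 CPM in WT LPS and 2031 and 1598 CPM in KOKI.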

How the data were processed

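RNA of splenic CD43-depleted cultures was sequenced with a stranded total RNA kit, per the labels' protocols. The authors deposited whole-number read counts per gene for 46959 genes, made with STAR 2.4.0a and featureCounts (Subread 1.4.6-p1) on mm10 (GRCm38), per the submitters' processing notes. The strand setting, multimapping rule and annotation used are not given in any source at hand. Here 100 spike-in and phiX entries (1 to 17 counts per library) were left out. The 6 splenic libraries, in 3 groups, were fitted with edgeR 4.0.16 in R 4.3.3 (filterByExpr with a minimum count of 10 and a total of 15, TMM scaling, quasi-likelihood test, Benjamini-Hochberg adjustment over all genes tested), since a shared spread serves groups of 2. The scripts were tested on simulated data. GENCODE M21 gave a class to 44145 genes (94.01%), and RefSeq windows on GRCm38.p6 covered 27025 promoters.

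Genes were named as the 12 largest called rises and falls with groups that did not overlap and at least 5 CPM, up to 4 called genes per list, a set of regulators and all constant immunoglobulin genes, and the 6 largest CPM differences each way; other list members are given as examples. The groups, lists and members were chosen with earlier results of these data known. Alternatives covered scaling, DESeq2 1.42.0, filters, the libraries and genes entered and each library left out. The fits restricted to protein-coding genes and without both second libraries were chosen after seeing the data.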

Additional observations from a re-analysis of the deposited data

How the results depend on the processing

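The count of 3639 called genes was between 2439 and 4982 under the other scalings, filters, tests and genes or groups entered with all 4 libraries kept, and between 1703 and 3463 with 1 library left out (1115 to 2227 higher, 588 to 1285 lower). Higher calls were 1338 with upper-quartile scaling and 1346 with all 10 libraries; without both second libraries there were 1678 calls, 932 higher and 746 lower. With the title number as a replicate block there were 4982 calls and Ighm passed (adjusted p = 0.03), but deviations of same-numbered KOKI LPS and WT LPS+SAHA libraries correlated at 0.0919, and the number was not taken to pair them. For WT LPS and WT LPS+SAHA it was 0.365, and the counts of SAHA against WT LPS come from the fit without the block. Of the main calls with a value, 1 turned its sign in 1 setting: Xist, which ran from -0.29 (without KOKI LPS replicate 2) to 10.2. The J segment sum of the heavy chain passed the test with upper-quartile scaling (-0.77), no filter (-0.62), the 1 CPM filter (-0.65) and the replicate block (-0.61) and without WT LPS+SAHA replicate 2 (-0.81), and ran from -0.81 to -0.37 with 1 library left out. The kappa J sum was -0.074 with upper-quartile scaling, -0.13 without both second libraries and -0.092 to 0.301 with 1 library left out. The lambda V sum was 0.62 and not called without both second libraries (0.78 to 1.17 with 1 library left out), and the lambda J sum ran from -0.54 to 0.066, positive without WT LPS+SAHA replicate 1. Cdkn1a, at 0.02, was -0.0076 with RLE, -0.14 with upper-quartile scaling, -0.0016 with DESeq2, -0.01999 with the 1 CPM filter, -0.01917 with only the 4 libraries, -0.059 with protein-coding genes only, -0.42 without both second libraries and -0.32 to 0.35 with 1 library left out, negative without KOKI LPS replicate 2 and without WT LPS+SAHA replicate 2 (-0.055). Hdac1 was -0.045 with upper-quartile scaling, and with 1 library left out Iglc3 ran from -0.88 to 0.20 and Iglc2 reached 0.27, both highest without WT LPS+SAHA replicate 1. For these changes the cause was not tested. Of 141 named calls, 97 held whichever 1 library was left out. Groups of 2 limit all p-values, and intervals cover counting error only.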

Other observations

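Replication-dependent histone genes, whose mRNAs end in a stem-loop and are made in S phase, were looked at after their values were seen. Of 67 tested, 32 were higher in KOKI LPS and 1, Hist1h2bn, was lower, with a median log2 difference of 1.33. Their summed level was 28300 and 13600 CPM with SAHA, 40000 and 29200 CPM in WT LPS and 58100 and 31600 CPM in KOKI, so the libraries of each group differed among themselves. The count of 32 became 7 without KOKI LPS library 1, 35 without library 2, 52 without WT LPS+SAHA library 1, 7 without library 2 and 35 without both second libraries.

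Ribosomal protein pseudogenes (122 tested) gave 14 higher and 1 lower call, smaller shares than the 14.1% higher and 9.64% lower over all genes. Their median log2 difference was -0.0938. Their sum was 1650 and 1300 CPM with SAHA, 1920 and 1520 CPM in WT LPS and 3080 and 2780 CPM in KOKI. That sum includes Rpl34-ps1 (mean 18.4 CPM with SAHA and 684 CPM in KOKI) and Rps13-ps1 (2.12 and 363 CPM). The protein-coding ribosomal genes (78 tested) gave 5 higher and 0 lower calls, again smaller shares than over all genes. Their sums were 134000 and 80700 CPM with SAHA and 137000 and 121000 CPM in KOKI.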
